A study of Mus musculus with 4 samples.

Results

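The collagen genes of the mouse hippocampus were examined in 4 RNA-seq libraries. Their members were chosen by symbol alone, as every gene named Col followed by a type number, the letter a and a chain number. This gave 44 of the 19230 genes measured, namely 11 chains of fibrillar collagens, 6 chains of the basement membrane collagen type IV and 27 chains of other types. All mice were C57BL/6 by strain and by genotype and were 12 months old. The LA group (2 libraries, replicates 1 and 2) had received Licochalcone A, a chalcone of licorice root, for 30 days. The Ctrl group (2 libraries, replicates 2 and 3) carries only a label for culture under normal conditions, and neither the dose and vehicle of LA nor the sex of the mice is stated in any source used here. Whether each library stands for its own mouse is also not stated. The p-values below reflect only spread between libraries, which may be technical and is partly taken from other genes.

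Collagens are proteins, most of them secreted, in which 3 alpha chains wind into a triple helix, and each gene encodes 1 alpha chain. Fibrillar collagens such as types I, III and V assemble into fibrils of connective tissue. Type IV forms the network of basement membranes, which in brain surround the vessels and lie under the glial surface. FACIT collagens attach to fibrils, type VI forms beaded filaments, type VIII forms hexagonal networks, and multiplexins such as type XVIII carry heparan sulfate in basement membranes. In brain most fibrillar collagen is made by fibroblasts of the meninges and of larger vessels, whereas neurons express a few collagens of other types, among them the transmembrane collagen XXV.

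Expression was given as FPKM, fragment counts scaled by transcript length and by the number of mapped fragments, so that levels of genes of different length can be compared. FPKM summed to 386945 to 441948 per library. Genes with 1 transcript took values in even steps, from which 15200000 to 16100000 fragments per library were estimated. A mean of 1 FPKM or more was reached by 13518 genes (70.3% of all rows). LA and Ctrl were compared in these by limma after a log2(FPKM + 1) transformation, and a call is an adjusted p (Benjamini-Hochberg over all these genes) under 0.05. Fold changes on this scale understate those of low genes. The 10 markers of hippocampal neurons were all measured, with a sum of 639.7 to 773.5 FPKM per library. Ctrl replicate 3 stood apart in choroid plexus markers. There Ttr, the transthyretin gene of choroid plexus epithelium, was 7360 FPKM, against 12.2 to 75.2 FPKM in the other libraries. Markers of leptomeningeal fibroblasts were lower with LA without overlap in 12 of 12 genes, against 21% of all tested genes, and none was listed at 0. Their summed level was 236.4 and 276.8 FPKM in Ctrl and 77.8 and 96.8 FPKM in LA.

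None of the tested collagen genes was called different between LA and Ctrl. Of the 44 members, 24 passed the filter on low values (8 fibrillar, 2 of type IV and 14 others). By limma 0 of these 24 had an adjusted p under 0.05, and 4 had an unadjusted p under 0.05, all lower with LA. Among all tested genes 0.141% were called lower and 0% called higher, 4.06% were lower at an unadjusted p under 0.05 and 3.74% were higher at that level. A count of 0 among 24 is thus near the background. That count changed when single libraries were left out, which left 1 library in a group. Without Ctrl replicate 2, Ctrl rested on replicate 3 alone, the library with high choroid plexus markers. Col8a1, Col8a2 and Col9a3 then had log2 fold changes of -2.79, -2.57 and -2.65. Without Ctrl replicate 3 they had -0.09, -0.30 and 0.14. Col1a2 had -1.41 and -1.43 in these 2 fits. A positive log2 fold change was found for 7 of the 24 collagens, against 47.6% of all tested genes. The median log2 fold change was -0.32 over the 24 collagens and -0.01 over all tested genes. It was -0.14 for the fibrillar chains, -0.02 for the type IV chains and -0.37 for the other chains. Without the filter the medians were -0.07 over 11 fibrillar, -0.22 over 6 type IV and -0.10 over 27 other chains, so the classes had no fixed order. Both LA libraries were below both Ctrl libraries for 10 of the 24 collagens (41.7%), against 21% of all tested genes, and above both for 2 of 24 (8.33%), against 17.6%. The members that passed did so on their mean over all 4 libraries, so these counts describe them and not all 44. In bulk tissue fewer cells of a type and less RNA per cell cannot be told apart.

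**Figure D1:**
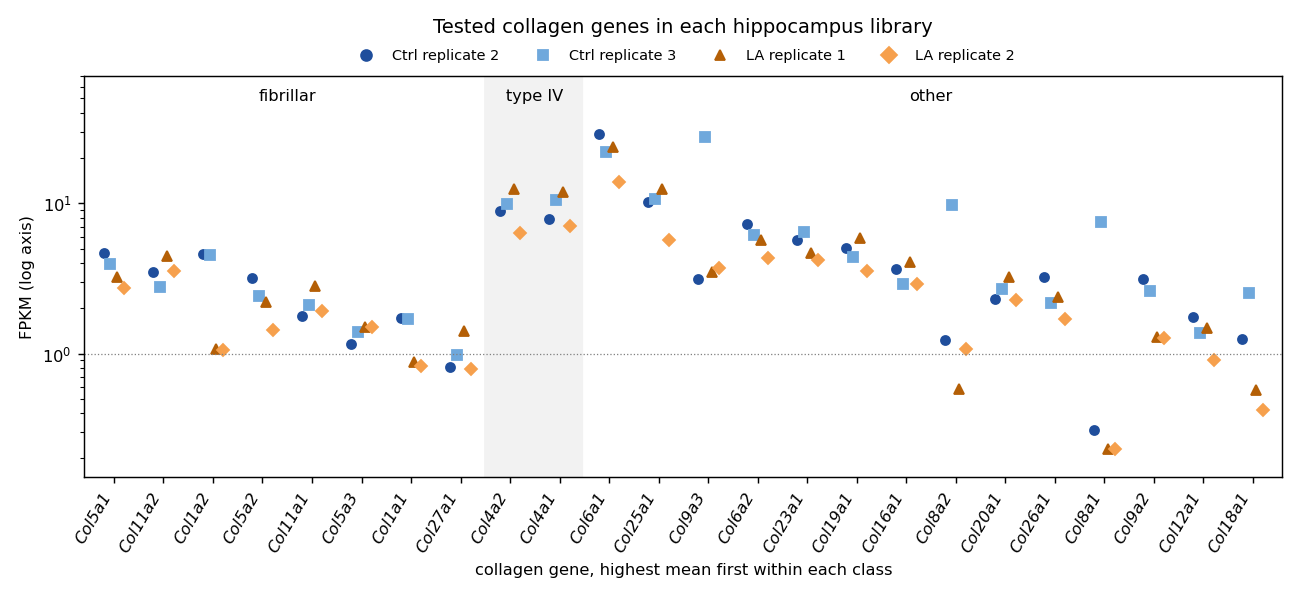
FPKM (log axis) of the 24 tested collagen genes in each of the 4 libraries, ordered by class and by mean level, with the dotted line at 1 FPKM. Col1a2 and Col1a1 form 2 separate pairs of points, type IV chains overlap between the groups, and Col9a3, Col8a2 and Col8a1 are high in Ctrl replicate 3 alone.

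Among the fibrillar chains, Col1a2 and Col1a1, which together form type I collagen, were lower with LA, although neither passed the threshold. Col1a2, the alpha-2 chain, was 4.58 and 4.51 FPKM in Ctrl replicates 2 and 3 and 1.08 and 1.06 FPKM in LA replicates 1 and 2. Its groups lay far apart, with Ctrl 4.25 times the LA mean, and the libraries within a group were nearly equal. These levels correspond to an estimated 394, 388, 88 and 86 fragments on its 1 annotated transcript of 5348 bases. The log2 fold change was -1.42 (standard error 0.195, unadjusted p = 0.000128, adjusted p = 0.0618 from limma). It was the collagen of smallest p, and the adjusted p ranged from 0.0104 to 0.402 over the alternatives run, being under 0.05 in 5 of 11, namely without the trend (0.0392), with robust estimation (0.0295), and without Ctrl replicate 2 (0.0104), Ctrl replicate 3 (0.0184) or LA replicate 1 (0.04997). Col1a2 lies on chromosome 6 of GRCm38 from 4504814 to 4541544.

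Col1a1, the alpha-1 chain, was 1.73 and 1.69 FPKM in Ctrl and 0.88 and 0.82 FPKM in LA. The groups did not overlap, and the Ctrl mean was 2.01 times the LA mean. Its log2 fold change was -0.55 (standard error 0.208, unadjusted p = 0.0313, adjusted p = 0.609 from limma). The ratio of Col1a2 to Col1a1 was 2.65 and 2.67 in Ctrl and 1.23 and 1.29 in LA, so the 2 chains did not differ between the groups by the same factor. No test was made of this ratio.

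The other fibrillar chains lay on both sides of Ctrl. Col5a1 and Col5a2, chains of type V collagen that set the diameter of type I fibrils, had no overlap between the groups. Col5a1 was 4.66 and 3.93 FPKM in Ctrl and 3.22 and 2.73 FPKM in LA (log2 fold change -0.41, standard error 0.199). Col5a2 was 3.20 and 2.40 FPKM in Ctrl and 2.21 and 1.44 FPKM in LA (log2 fold change -0.43, standard error 0.235). Neither passed, with an adjusted p of 0.690 and 0.721 from limma, and the ratio of Col5a1 to Col5a2 lay between 1.46 and 1.90 in every library. Col5a1 shares exon bases with 2810430I11Rik and Gm13372 on the opposite strand, so its reads are uncertain there. The third chain of this type, Col5a3, was on the other side, at 1.16 and 1.39 FPKM in Ctrl and 1.5 FPKM in both LA libraries. Type XI chains were also not lower. Col11a2 was 3.48 and 2.79 FPKM in Ctrl and 4.47 and 3.55 FPKM in LA (log2 fold change 0.28, standard error 0.209), without overlap. Col11a1 was 1.78 and 2.12 FPKM in Ctrl and 2.82 and 1.93 FPKM in LA, and the groups overlapped, as they did for Col27a1. All 4 positive fibrillar chains had an adjusted p of 0.798 or more from limma.

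The other 3 fibrillar chains were under the filter. Col3a1, the single chain of type III collagen, which accompanies type I in soft connective tissue, was 0.67 and 0.50 FPKM in Ctrl and 0.16 and 0.12 FPKM in LA. The groups did not overlap and the Ctrl mean was 4.18 times the LA mean, close to the factor for Col1a2, but the estimated fragments were only 60, 45, 14 and 10. In the fit without a filter its adjusted p was 0.578 (limma). Col3a1 lies beside Col5a2 on chromosome 1. The ratio of Col3a1 to Col5a2 was 0.209 and 0.208 in Ctrl and 0.0724 and 0.0833 in LA. Col2a1, the cartilage collagen, was between 0.34 and 0.60 FPKM and Col24a1 between 0.11 and 0.22 FPKM, both with overlap.

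**Figure D2:**
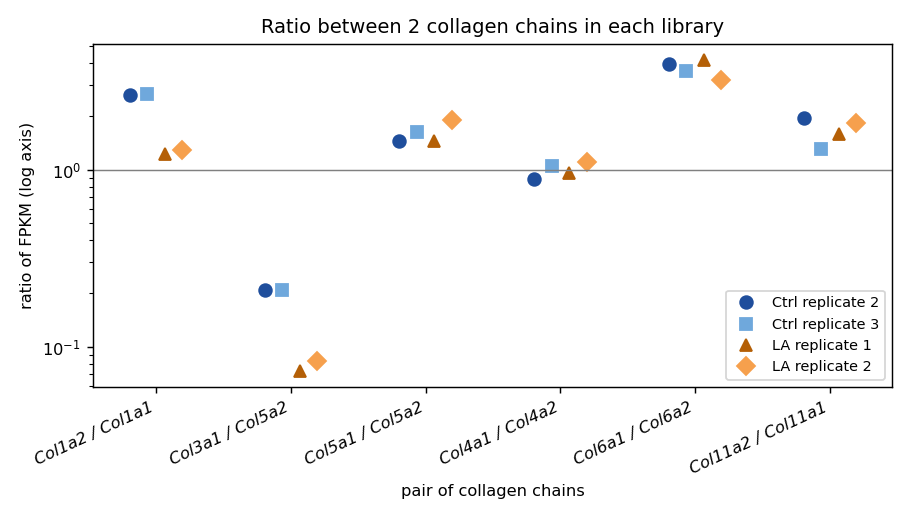
Ratio of FPKM (log axis) between 2 collagen chains in each library, for 6 pairs. The ratios of Col1a2 to Col1a1 and of Col3a1 to Col5a2 are lower in both LA libraries, whereas those of Col5a1 to Col5a2, Col4a1 to Col4a2, Col6a1 to Col6a2 and Col11a2 to Col11a1 overlap between the groups.

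The upstream sequence of Col1a2 is shown because this gene had the smallest p of the collagens, and that of Col9a2 because it had the second smallest. Each sequence runs from 250 bases before the start of transcription to 30 bases after it, by the start of a RefSeq transcript (build GRCm38.p6). For both genes this start lies downstream of the GENCODE gene start, so that the windows lie partly or wholly within the span GENCODE gives to the gene. Capitals mark CCAAT and GGGCGG, searched on both strands together with TATAAA, so that a motif on the other strand appears as ATTGG or CCGCCC.
Col1a2 (chr6:4505368-4505647, plus strand): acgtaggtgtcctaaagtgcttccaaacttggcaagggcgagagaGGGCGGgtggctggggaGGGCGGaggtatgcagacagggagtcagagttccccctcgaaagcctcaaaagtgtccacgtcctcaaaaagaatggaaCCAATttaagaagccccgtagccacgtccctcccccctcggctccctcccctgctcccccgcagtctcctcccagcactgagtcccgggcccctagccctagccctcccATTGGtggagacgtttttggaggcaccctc
Col9a2 (chr4:121039316-121039595, plus strand): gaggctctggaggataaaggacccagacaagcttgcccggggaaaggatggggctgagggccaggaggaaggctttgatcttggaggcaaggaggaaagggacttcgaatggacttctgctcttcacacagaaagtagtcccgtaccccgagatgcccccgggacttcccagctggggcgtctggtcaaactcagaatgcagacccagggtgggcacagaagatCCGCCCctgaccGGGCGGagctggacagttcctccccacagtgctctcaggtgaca
Col1a2 held CCAAT at -109 and, on the other strand, at 1, and GGGCGG at -205 and -188, counted from the RefSeq start at 1. Whether transcription starts there in hippocampus was not tested. Col9a2 held GGGCGG on the 2 strands at -14 and -26 and no CCAAT, and neither window held TATAAA. Promoter windows were found for 35 of the 44 collagen genes. GGGCGG was in 23 of their 38 windows (60.5%), against 34.7% of all 32851 windows, CCAAT in 34.2% against 36.1% and TATAAA in 13.2% against 13.1%. Such matches are a description of the sequence only.

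Col4a1 and Col4a2, the tested chains of type IV collagen in the vessel wall, overlapped between the groups. Col4a1 was 7.92 and 10.5 FPKM in Ctrl and 12.0 and 7.08 FPKM in LA. Col4a2 was 8.90 and 9.93 FPKM in Ctrl and 12.5 and 6.39 FPKM in LA. Both chains were highest in LA replicate 1 and lowest in LA replicate 2, so the LA libraries differed more from each other than from Ctrl. The log2 fold changes were 0.02 (standard error 0.259) and -0.06 (standard error 0.280), and the adjusted p was 0.995 and 0.979 from limma. The sign turned for each of them when single libraries were left out (-0.32 to 0.36 for Col4a1 and -0.49 to 0.37 for Col4a2). The 2 chains, which join in 1 molecule, stayed close to each other, at a ratio of Col4a1 to Col4a2 of 0.890 to 1.11 in every library. Endothelial markers, which mark the cells on this basement membrane, were negative in 8 of 8 tested genes, against 7086 of all 13518. Their median log2 fold change was -0.67, and -0.33 without Ctrl replicate 3. Both LA libraries were below both Ctrl libraries for 5 of the 8, against 21% of all tested genes. The summed level of the 10 listed was 40.9 and 82.2 FPKM in Ctrl and 30.7 and 33.0 FPKM in LA. None was listed at 0. Of this, Ly6c1 was 18.2 and 47.5 FPKM in Ctrl and 15.6 and 18.7 FPKM in LA, with overlap.

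Col4a1 and Col4a2 lie head to head on chromosome 8, and their annotated starts overlap. The bases between the 2 starts are shown because reads over them cannot be assigned to 1 of the genes unless strand is used, and use of strand is not given in the sources used here.
Col4a1 and Col4a2 (chr8:11312805-11312826, plus strand): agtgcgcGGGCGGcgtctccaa
The capitals mark GGGCGG within these 22 bases (RefSeq, build GRCm38.p6).

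The other 4 chains of type IV were under the filter. For 3 of them (Col4a4, Col4a5 and Col4a6) both LA libraries were below both Ctrl libraries, as in 20.1% of all rows. With 4 chains of such low level this count says little of type IV. Col4a3 and Col4a4, chains of the type IV network of kidney glomeruli, were high in Ctrl replicate 3 alone. Col4a3 was 0.08 and 1.39 FPKM in Ctrl and 0.11 and 0.07 FPKM in LA. Col4a4 was 0.26 and 1.36 FPKM in Ctrl and 0.12 FPKM in both LA libraries. Col4a5 was 0.97 and 1.43 FPKM in Ctrl and 0.77 and 0.59 FPKM in LA, without overlap. Col4a6 was 0.02 FPKM in both Ctrl libraries and listed at 0 in both LA libraries.

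**Figure D3:**
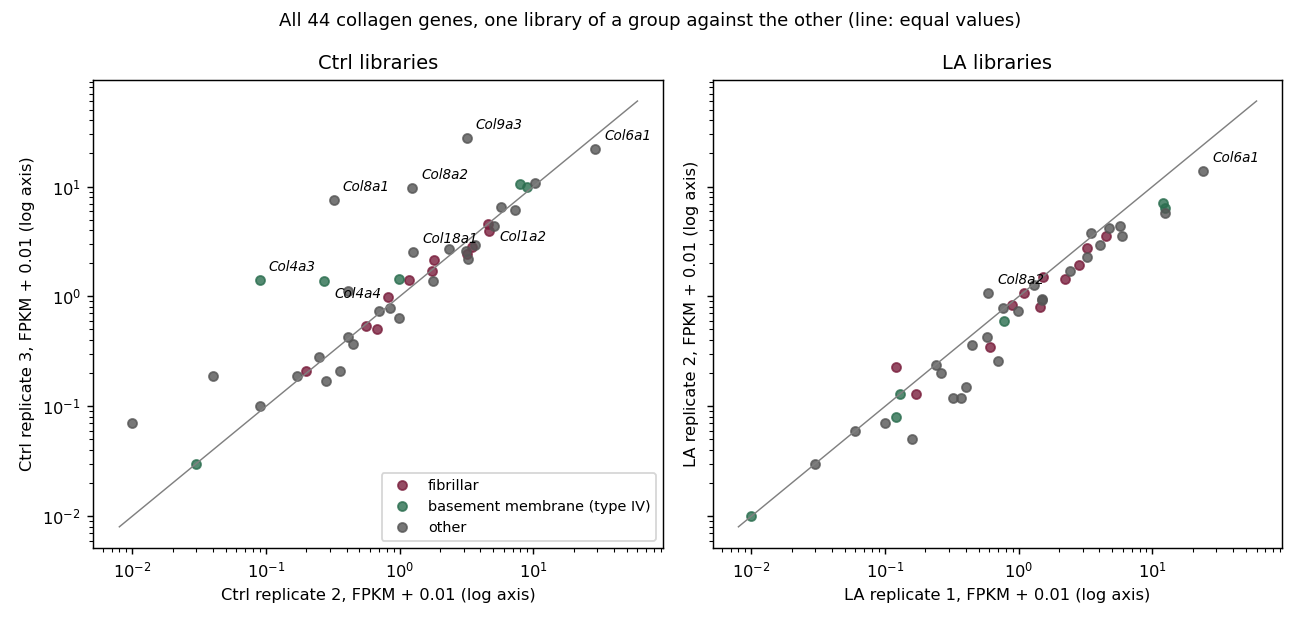
FPKM plus 0.01 (log axes) of all 44 collagen genes in the 2 Ctrl libraries (left) and in the 2 LA libraries (right), with the line of equal values. Col9a3, Col8a2, Col8a1, Col4a3 and Col4a4 lie far above the line for Ctrl replicate 3, and most collagens lie below the line in the LA plot, where LA replicate 1 had the higher value.

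Several collagens were high in Ctrl replicate 3, the library with high choroid plexus markers. Col8a1 and Col8a2, the chains of the network-forming type VIII, and Col9a3, a chain of the FACIT type IX, were at least 5 times as high there as in each other library. Col8a1 was 0.31 and 7.52 FPKM in Ctrl and 0.23 FPKM in both LA libraries. Col8a2 was 1.23 and 9.75 FPKM in Ctrl and 0.58 and 1.07 FPKM in LA. Col9a3 was 3.16 and 27.8 FPKM in Ctrl and 3.47 and 3.73 FPKM in LA. With Col4a3 and Col4a4 these were 5 of the 44 members, whereas 2.96% of all rows and 0.355% of tested genes had this pattern. The 10 choroid plexus epithelium markers had it in 10 of 10, none listed at 0. Their summed level was 21.5 FPKM in Ctrl replicate 2, 7581 FPKM in Ctrl replicate 3 and 58.1 and 87.6 FPKM in LA. The part of choroid plexus in these collagen values was not tested.

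The fold changes of these 3 tested chains therefore rested on 1 library. The log2 fold change was -1.44 for Col8a1 (standard error 0.734), -1.44 for Col8a2 (standard error 0.632) and -1.25 for Col9a3 (standard error 0.748), with an adjusted p of 0.705, 0.657 and 0.735 from limma. Without Ctrl replicate 3 they were -0.09, -0.30 and 0.14. Without Ctrl replicate 2 they were -2.79, -2.57 and -2.65, and all 3 passed the threshold, the highest adjusted p being 2.83e-05 from limma. Col9a3 also shares exon bases with Tcfl5 on the opposite strand, so reads of the 2 genes cannot be told apart there without strand. The upstream windows of the type VIII genes, which share this pattern, are shown with the same marks.
Col8a1 (chr16:57754708-57754987, minus strand): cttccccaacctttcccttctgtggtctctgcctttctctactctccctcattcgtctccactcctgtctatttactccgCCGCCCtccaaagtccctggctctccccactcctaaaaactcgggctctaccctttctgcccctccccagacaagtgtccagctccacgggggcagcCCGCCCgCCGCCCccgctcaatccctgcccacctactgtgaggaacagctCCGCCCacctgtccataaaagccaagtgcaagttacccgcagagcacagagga
Col8a2 (chr4:126286544-126286823, plus strand): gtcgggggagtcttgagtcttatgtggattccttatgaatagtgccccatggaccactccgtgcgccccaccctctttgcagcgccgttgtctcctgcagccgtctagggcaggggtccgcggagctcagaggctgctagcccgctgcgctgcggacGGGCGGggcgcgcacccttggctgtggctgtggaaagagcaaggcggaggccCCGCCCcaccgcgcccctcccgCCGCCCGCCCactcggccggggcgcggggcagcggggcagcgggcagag
Each held GGGCGG at 4 positions when the 2 strands were counted together, the last pair in Col8a2 overlapping at -19 and -15, and neither held CCAAT or TATAAA.

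Col18a1, the multiplexin whose C-terminal fragment is endostatin, was 1.25 and 2.54 FPKM in Ctrl and 0.57 and 0.42 FPKM in LA. The groups did not overlap, but Ctrl replicate 3 was 2.03 times Ctrl replicate 2. The log2 fold change was -0.92 (standard error 0.273, unadjusted p = 0.0111, adjusted p = 0.496 from limma), and it was -0.59 without Ctrl replicate 3 and -1.25 without Ctrl replicate 2, where it passed (adjusted p = 0.0156). The related multiplexin Col15a1 was between 0.73 and 0.97 FPKM, with overlap.

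Col9a2, the alpha-2 chain of type IX, differed from Col9a3 of the same type. It was 3.12 and 2.60 FPKM in Ctrl and 1.29 and 1.27 FPKM in LA, without overlap, at an estimated 147, 122, 57 and 56 fragments. The log2 fold change was -0.76 (standard error 0.205, unadjusted p = 0.00714, adjusted p = 0.445 from limma), and omission of single libraries kept it between -0.85 and -0.66. The Ctrl mean was 2.23 times the LA mean, and Ctrl replicate 2 was the higher of the Ctrl libraries. The ratio of Col9a3 to Col9a2 was 1.01 in Ctrl replicate 2, 10.7 in Ctrl replicate 3, and 2.69 and 2.94 in LA. The third chain, Col9a1, was between 0.16 and 0.27 FPKM.

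Type VI chains had the highest summed FPKM among the types and subclasses in 3 of the 4 libraries, and in Ctrl replicate 3 the FACIT chains were higher (42.8 against 30.0 FPKM). Col6a1, the alpha-1 chain, was 28.9 and 22.1 FPKM in Ctrl and 23.9 and 13.9 FPKM in LA, which was 13.8% to 23.5% of the summed collagen FPKM of a library. It had the highest level of the 44 in each library but Ctrl replicate 3, where Col9a3 was higher. Its groups overlapped, and the log2 fold change was -0.45 (standard error 0.260, adjusted p = 0.730 from limma). Col6a2 was 7.29 and 6.12 FPKM in Ctrl and 5.70 and 4.34 FPKM in LA, without overlap (log2 fold change -0.36, standard error 0.202, adjusted p = 0.724). The ratio of Col6a1 to Col6a2 lay between 3.19 and 4.19. The chain that joins them in the classic molecule, Col6a3, was much lower, between 0.25 and 0.69 FPKM. The chains that can take its place, Col6a4, Col6a5 and Col6a6, were at most 1.49 FPKM.

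Among transmembrane collagens and the remaining types no tested chain had an unadjusted p under 0.05. Col25a1, the transmembrane collagen of neurons that is found in amyloid plaques, was 10.3 and 10.7 FPKM in Ctrl and 12.4 and 5.74 FPKM in LA. The LA libraries lay on the 2 sides of Ctrl, so the groups overlapped. Col23a1, also a transmembrane chain, was 5.68 and 6.48 FPKM in Ctrl and 4.68 and 4.20 FPKM in LA, without overlap (log2 fold change -0.38, standard error 0.185, adjusted p = 0.690 from limma). Col13a1, a transmembrane chain under the filter, was 0.69 and 0.72 FPKM in Ctrl and 0.39 and 0.14 FPKM in LA. The FACIT and FACIT-like chains Col12a1, Col16a1, Col19a1 and Col20a1, and also Col26a1, overlapped between the groups, with log2 fold changes between -0.27 and 0.09. In all, 20 members were under the filter, with means of 0.01 to 0.983 FPKM, and in 8 of them both LA libraries were below both Ctrl libraries, against 0 above. Over all 44 members this was 18 below (40.9%), where all rows gave 20.1%, and 2 above (4.55%), where all rows gave 15.7%.

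**Figure D4:**
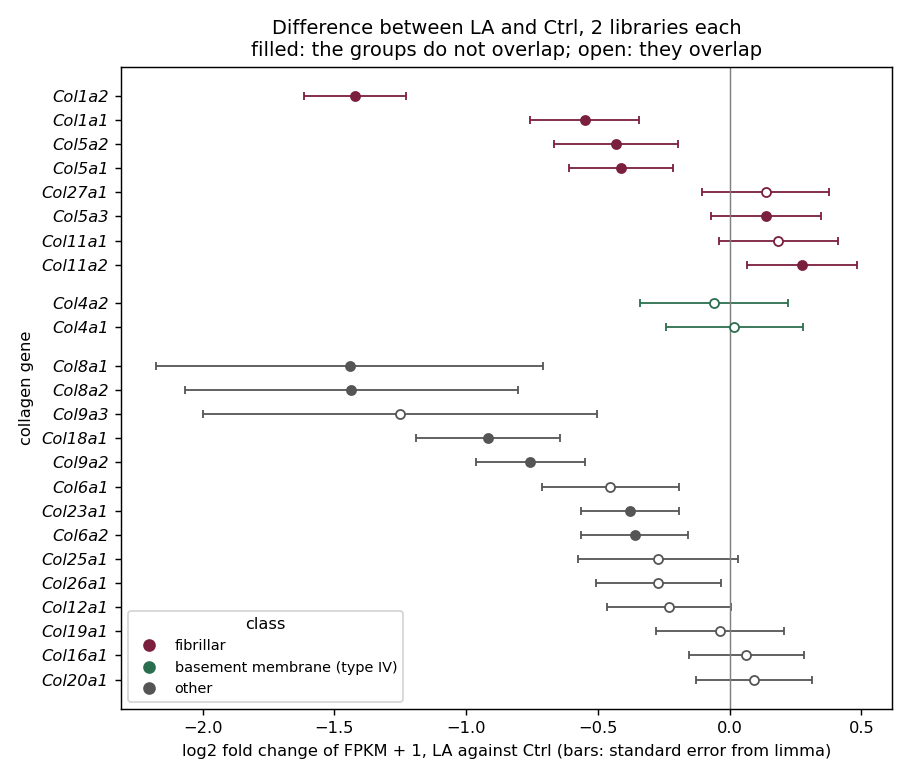
Log2 fold change of FPKM + 1 between LA and Ctrl for the 24 tested collagen genes, by class, with the standard error from limma as bars and filled points where the groups of 2 libraries do not overlap. Col1a2 stands at -1.42 with a short bar, Col8a1, Col8a2 and Col9a3 have long bars, and the type IV chains lie at 0.02 and -0.06.

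The LA libraries differed from each other in level across the collagens. Of the 24 tested members, 20 were higher in LA replicate 1 than in LA replicate 2 (83.3%), where 57.9% of all tested genes were. The summed collagen FPKM was 119.7 in LA replicate 1 and 78.7 in LA replicate 2, against 123.1 and 159.9 in Ctrl replicates 2 and 3. The sum of Ctrl replicate 3 includes 27.8, 9.75 and 7.52 FPKM from Col9a3, Col8a2 and Col8a1. In Ctrl replicate 2 these were 3.16, 1.23 and 0.31 FPKM. Ctrl replicate 3 was above Ctrl replicate 2 in 12 of 24 members, against 46.6% of all tested genes. The fibrillar sum was 22.8 and 21.0 FPKM in Ctrl and 18.5 and 14.5 FPKM in LA, without overlap. The type IV sum was 18.2 and 24.6 FPKM in Ctrl and 25.5 and 14.3 FPKM in LA, with overlap. Col1a2, Col1a1 and Col9a2, by contrast, differed little within LA, with LA replicate 1 at 1.02, 1.07 and 1.02 times LA replicate 2. Without LA replicate 1 the median log2 fold change of the 24 was -0.50, and without LA replicate 2 it was -0.10.

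Genes that act on collagen were taken from lists of enzymes, receptors and binding proteins. Small leucine-rich proteoglycans, which bind fibrils and regulate their growth, held the only called genes of these lists. Fmod (fibromodulin) fell from 27.7 and 27.4 FPKM in Ctrl to 3.29 and 4.62 FPKM in LA (log2 fold change -2.54, standard error 0.187, adjusted p = 0.0121 from limma). Omd (osteomodulin) fell from 6.78 and 7.24 FPKM to 1.04 and 0.82 FPKM (log2 fold change -2.055, adjusted p = 0.0196 from limma). Without the filter on low values neither was called (adjusted p = 0.319 for both), and without LA replicate 2 Omd was not (adjusted p = 0.0698). These were 2 of the 8 tested members, where 0.141% of all tested genes were called lower. The median over the 8 was -1.14, and 6 of the 8 were lower without overlap, against 21% of all tested genes. Prelp overlapped between the groups, and Epyc was higher with LA without overlap (0.99 and 0.96 FPKM in Ctrl, 1.28 and 1.13 FPKM in LA). Bgn (biglycan) had -1.42 and Ogn (osteoglycin) -1.97, which did not pass.

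None of the 26 tested collagen-modifying enzymes and chaperones was called by limma, and the median was -0.13. At an unadjusted p under 0.05, 4 were lower (15.4%, against 4.06% of all tested genes) and 0 higher. Pcolce, which enhances removal of the C-propeptide, was 10.1 and 27.9 FPKM in Ctrl and 1.60 and 2.87 FPKM in LA (log2 fold change -2.49, adjusted p = 0.132 from limma). It lay far below the other 25. Mia3, which exports procollagen from the endoplasmic reticulum, had a log2 fold change of -0.44, Serpinh1, a collagen chaperone, of -0.59, and Adamts2, which removes the N-propeptide, of -0.55. The prolyl hydroxylase subunit P4ha1 was at 0.27.

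Of 6 tested collagen receptors 0 were called by limma. At an unadjusted p under 0.05, 3 were lower (50%, against 4.06% of all tested genes). Mrc2, an endocytic receptor for collagen, had a log2 fold change of -0.88, Ddr2, a receptor kinase for fibrillar collagen, of -0.83, Itga10, an integrin subunit, of -0.53 and Itgb1, the beta subunit of collagen-binding integrins, of -0.37. Ddr1, a related receptor kinase, was at 0.11. Of 7 tested collagen-degrading enzymes and their inhibitors 0 were called. At an unadjusted p under 0.05, 2 were lower (28.6%, against 4.06% of all tested genes), the inhibitors Timp3 at -1.08 and Timp2 at -0.66. Both LA libraries were below both Ctrl libraries for 6 of the 7, against 21% of all tested genes, and the median was -0.52. These 6 included the degrading enzymes Mmp2 (-0.52), Ctsk (-0.51) and Mmp14 (-0.24). Timp4, another inhibitor, was higher with LA without overlap (0.31, adjusted p = 0.690 from limma). Collagens, with a median of -0.32, thus stood between the modifying enzymes and the receptors, and no test compared the lists.

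Markers of the cells that could bring collagen into the tissue were set beside these values. Among the 12 leptomeningeal fibroblast markers, of which Lum and Dcn are also in the proteoglycan list, the median was -1.88 on the log2 scale, and 5 of them were called lower, led by Slc6a20a at -2.50, while Foxc1, a transcription factor of these fibroblasts, had -1.33. Both LA libraries were below both Ctrl libraries for all 12, against 21% of all tested genes. Of all tested genes 0.141% were called lower. The list was chosen with earlier results of these data known. Within LA, 2 of the 12 were higher in replicate 1 than in replicate 2, as were 20 of the 24 collagens and 57.9% of all tested genes. The part of this list in the collagen values was not tested. For pericytes and smooth muscle the median was -0.38, with 1 of 8 tested genes called (Vtn), where 0.141% of all tested genes were called lower. The summed level of the 10 listed was 81.6 and 77.5 FPKM in Ctrl and 38.6 and 38.8 FPKM in LA. None was listed at 0. Vtn alone was 50.8 and 45.5 FPKM in Ctrl and 13.2 and 15.8 FPKM in LA. Of the 8, 5 were lower and 1 (Higd1b) higher with LA without overlap, against 21% and 17.6% of all tested genes. Oligodendrocyte markers lay on the other side. All 8 were higher with LA without overlap, against 17.6% of all tested genes. All 8 also had an unadjusted p under 0.05 by limma, where 3.74% of all tested genes were higher at that level, but 0 were called. Their median was 0.97, and their summed level was 2203 and 1914 FPKM in Ctrl and 3412 and 4217 FPKM in LA. The part of this difference in the collagen values was not tested. Hippocampal neurons gave a median of 0.01, with 0 of 10 at an unadjusted p under 0.05, and interneurons gave -0.07, with 1 of 6 (Pvalb, higher with LA).

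**Figure D5:**
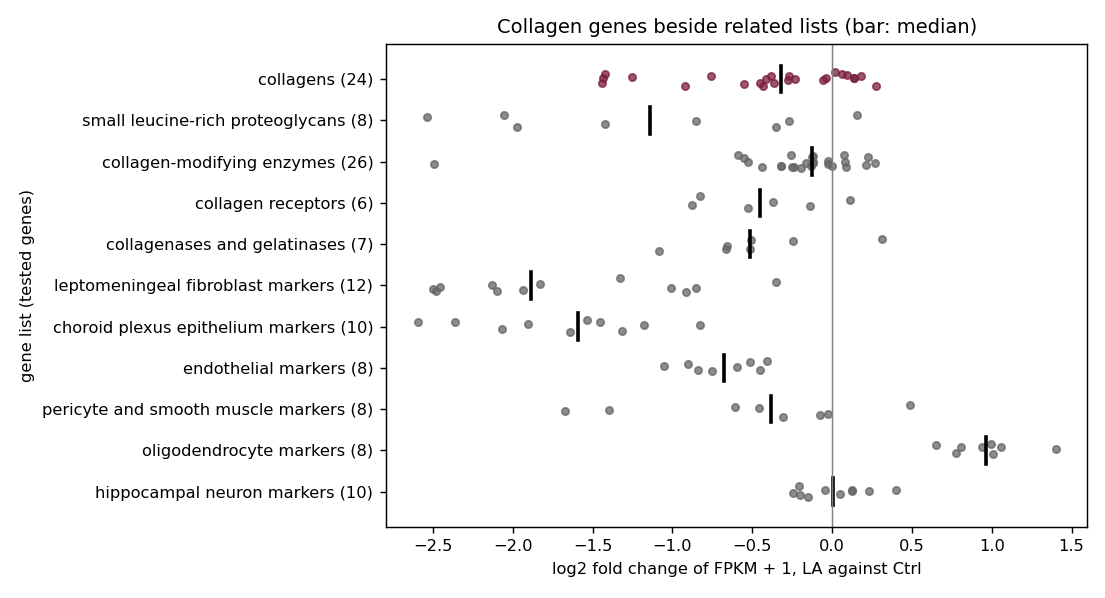
Log2 fold change of FPKM + 1 between LA and Ctrl for the tested collagens and for related gene lists, 1 point per gene, with a bar at the median and the number of genes in parentheses. The collagens spread from -1.44 to 0.28 with a median of -0.32, and the medians of leptomeningeal fibroblast, oligodendrocyte and hippocampal neuron markers are -1.88, 0.97 and 0.01.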

How the data were processed

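Messenger RNA of hippocampus was sequenced in 4 libraries. Expression was deposited as FPKM, computed by the authors for each library. TopHat2, Cufflinks and GRCm38 appear in the processing notes of the submitters, while their roles and versions and the annotation were not given in the sources used here. Columns were matched to libraries by title. The values were not scaled further. The test of LA against Ctrl was limma 3.58.1 (R 4.3.3) on log2(FPKM + 1), using lmFit and eBayes with trend, for 13518 genes that had a mean of 1 FPKM or more, all of which entered the adjustment. The prior had 5.37 degrees of freedom and each gene 2. The procedure was tested on simulated data in which all genes shared a common spread and no library stood apart. That test therefore does not cover a library such as Ctrl replicate 3. Depth was estimated from the steps of FPKM times transcript length in 203 to 259 genes with 1 transcript. Fragments were estimated for the 11 members with 1 RefSeq transcript length. Positions are from GENCODE M21 (GRCm38).

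Members, classes and lists were chosen with earlier results of these data known. By rule the text named members with an unadjusted p under 0.05, the 4 of highest mean in each class, neighbouring chains and up to 4 genes of smallest p per list. The other members were added with their values known. So were the comparison genes P4ha1, Ddr1, Foxc1, Pvalb, Higd1b, Ly6c1, Prelp, Epyc, Mmp2, Mmp14, Ctsk and the TIMP genes. Alternative settings were a pseudocount of 0.1 or 0.5, no filter or one at 5 FPKM, median-ratio scaling, quantile normalization, no trend, robust estimation and each library left out.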

Additional observations from a re-analysis of the deposited data

How the results depend on the processing

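No paired analysis was possible because the groups share only 1 replicate number. Of 270 values of the 24 tested collagens under the alternatives, 247 changed neither sign nor call, 9 newly passed and 14 changed sign. With no filter on low values 0 of 19080 genes were called by limma (1333 had an unadjusted p under 0.05). Robust estimation called 40 genes, and leaving out each library in turn gave 2 (without LA replicate 2) to 227 (without Ctrl replicate 2), with 78 without Ctrl replicate 3 and 177, of which 119 were higher, without LA replicate 1. Collagens called numbered 1 without the trend, 1 with robust estimation (Col1a2 in both) and 0 to 5 when single libraries were omitted, with 5 without Ctrl replicate 2, namely Col1a2, Col8a1, Col8a2, Col9a3 and Col18a1. The fibrillar median was -0.39 with median-ratio scaling, where 7 chains were left, and -0.29 to -0.049 when single libraries were omitted. The type IV median lay between -0.41 and 0.37 and that of the other chains between -0.64 and -0.15 when single libraries were omitted, and the type IV median was positive with median-ratio scaling (0.0053) and with quantile normalization (0.029). The median of all members was -0.085 without a filter, over 44 members, and -0.50 to -0.096 under the same omissions. Signs changed on omission of a library for Col11a1 (-0.0074 to 0.38), Col27a1 (-0.081 to 0.35), Col4a2 (-0.49 to 0.37), Col4a1 (-0.32 to 0.36), Col25a1 (-0.77 to 0.22), Col9a3 (-2.65 to 0.14), Col19a1 (-0.34 to 0.26), Col16a1 (-0.12 to 0.24) and Col20a1 (-0.095 to 0.28), and for Col19a1 also with quantile normalization (0.0070). The cause of these changes under the alternatives was not tested. Where 1 library remained in a group, its spread was taken from the other group. Low fragment numbers limit what can be said of the 20 members under the filter.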
